A study of Homo sapiens with 24 samples.

Results

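Chromosome 19 carries the largest collection of zinc finger genes in the human genome, and their transcript levels were followed here in A549 cells, an established line from a human lung adenocarcinoma. The genes are the 246 protein-coding genes of that chromosome whose symbol is ZNF, a number and at most 1 further letter in GENCODE 29, among 35579 genes with a matched transcript in the deposited tables. The study, on the kinase TAOK2 and RNA processing in the nucleus, measured 24 libraries of polyadenylated RNA in 2 experiments. The first has whole cells in 4 groups of 3 libraries, in batches A, B and C: cells given compound 2, labelled a TAOK2 kinase inhibitor; cells given a TAOK2 siRNA pool at 30 nM; cells given a non-targeting control siRNA pool at 30 nM; and cells given DMSO. The second has nuclear, cytoplasmic and total RNA from cells given the TAOK2 siRNA and from cells given the control siRNA, 2 libraries each, in batches 1 and 2. All cells carry the label WT for genotype, and no source used here gives a dose or time for compound 2. Titles of the whole-cell libraries all carry the word mock. Apart from the batches and a statement that transfections were done in triplicate, nothing says that libraries came from separate cultures, so p-values measure the spread between these libraries. Compound 2 is known here only by its code name.

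Most proteins of this family carry a KRAB domain followed by a row of C2H2 zinc fingers. In each finger, pairs of cysteines and histidines hold a zinc ion, and the residues between them read the bases of DNA. The KRAB domain recruits TRIM28 (KAP1), which brings the histone methyltransferase SETDB1 and other silencing proteins to the bound site, often a transposable element. The genes arose by repeated tandem duplication and still lie in clusters, so neighbours have similar sequences.

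Examples of that design are given here from the coding sequence. For the 3 genes that serve as landmarks here (ZNF324, ZNF45 and ZNF224) and for ZNF146, the most abundant member, 1 finger unit of 84 bases is shown, read from the GENCODE 29 transcript named beside it, with the codons of the zinc-holding cysteines and histidines in capitals.
ZNF324-203: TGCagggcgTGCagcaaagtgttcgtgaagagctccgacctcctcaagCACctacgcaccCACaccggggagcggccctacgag
ZNF45-206: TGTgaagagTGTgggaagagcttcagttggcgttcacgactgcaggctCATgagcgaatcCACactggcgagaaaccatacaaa
ZNF224-201: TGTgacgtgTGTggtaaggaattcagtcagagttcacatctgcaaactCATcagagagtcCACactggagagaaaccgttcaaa
ZNF146-202: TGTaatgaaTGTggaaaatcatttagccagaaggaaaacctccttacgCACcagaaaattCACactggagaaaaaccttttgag
The units were picked by a pattern that fixes the spacing of these codons and the residues that follow the last histidine. The capitals therefore stand at the same places in all 4 units by choice, and part of the bases shared below is set by the pattern. The bases between the capitals differ. Of the 84 bases of these units ZNF45 and ZNF224 share 65, ZNF224 and ZNF146 share 55, ZNF45 and ZNF146 share 47, ZNF324 shares 44 with ZNF224 and 44 with ZNF146, and ZNF324 and ZNF45 share 41. Fingers were counted by a looser pattern, which lets the spacing vary and sets no residues after the last histidine. By that count the coding sequences hold 9 fingers in ZNF324, 15 in ZNF45, 18 in ZNF224 and 10 in ZNF146. The median over the 246 genes is 12 fingers (range 0 to 36).

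ZNF324 (ENSG00000083812.11) lies at chr19:58467045-58475436 on the plus strand of GRCh38, and ZNF446 (ENSG00000083838.15), at chr19:58474017-58481230 on the same strand, overlaps its end. ZNF45 (ENSG00000124459.11) lies at chr19:43912629-43935278 on the minus strand, ZNF224 (ENSG00000267680.5) at chr19:44094339-44109886 on the plus strand, and ZNF146 (ENSG00000167635.11) at chr19:36214602-36238774 on the plus strand. Similar sequence limits how well reads can be assigned: a median of 10.7% of a member's 31-base words also occur in transcripts of another gene (range 0 to 88.4%), and 11 members share at least 50%. The share was 1.6% for ZNF45 and 5.26% for ZNF224. It was 37.1% for ZNF324 and 47.5% for ZNF446, which overlap each other, so values of that pair are less certain.

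Values are kallisto's TPM, an abundance per length scaled to the same total in every library, made by the authors and summed here over a gene's transcripts. Most of these genes are transcribed at low levels. Over the 12 whole-cell libraries 161 of the 246 averaged at least 1 TPM and were tested, 39 averaged at least 10 TPM and 21 were under 0.1 TPM, with a median of 2.15 TPM. ZNF146, a protein of zinc fingers with no KRAB domain, was highest at 169 TPM, followed by ZNF428 at 77.3 TPM, ZNF787 at 69.6 TPM and ZNF580 at 58.4 TPM. In the 12 fractionation libraries 153 members passed the same filter. ZNF91 and ZNF93, which repress SVA and L1 retrotransposons, and ZNF382 averaged under 1 TPM in whole cells and were not tested there.

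Some facts of the libraries touch every result. TAOK2 itself had 8.56 to 12.5 TPM with TAOK2 siRNA, against 34.3 to 40.3 TPM with control siRNA, in whole cells, and was lower with TAOK2 siRNA in each fraction and batch. It had 20.5 to 30.7 TPM with compound 2, against 37.5 to 40.6 TPM with DMSO. The experiments differ from each other in single markers of several cell types, in both directions, so levels are compared within an experiment. KRT19, a keratin of simple epithelia, had 0.0707 to 1.22 TPM in fractionation libraries, against 90.8 to 287 TPM in whole-cell libraries. The adhesion genes EPCAM (25.7 to 113 TPM in fractionation libraries, against 3.72 to 12.2 TPM in whole-cell libraries) and CDH1 (52.3 to 82.2 TPM, against 4.26 to 25.7 TPM) went the other way. All 6 epithelial markers listed averaged at least 1 TPM in whole cells. Of the 6 leukocyte markers 2 did so in whole cells and 3 in fractionation libraries. Of the 6 alveolar type II markers 1 did so in each experiment. CD68 of the leukocyte list had 11.3 to 28.3 TPM in whole-cell libraries and 13.4 to 63.5 TPM in fractionation libraries. NAPSA of the alveolar list reached 12.1 TPM in fractionation libraries. Of the 6 fibroblast markers 1 averaged at least 1 TPM in whole cells and 3 in fractionation libraries, and of the 4 endothelial markers 0 and 1. LUM of the fibroblast list had 0.0440 to 0.738 TPM in whole-cell libraries, against 6.26 to 44.7 TPM in fractionation libraries. COL1A1 of that list had 5.47 to 29.6 TPM, against 1.19 to 7.70 TPM. LYZ of the leukocyte list had 0.145 to 1.61 TPM, against 4.92 to 54.1 TPM. The lowest of these lists were CD3E of T cells, at 0 in every library, and the surfactant gene SFTPA1, at most 0.012 TPM. Mitochondrially encoded mRNA made up 36.5 to 42.5% of TPM in nuclear libraries, against 8.10 to 13.9% in cytoplasmic libraries, which lowers the TPM of other nuclear transcripts. That mRNA had been chosen as a marker of cytoplasmic RNA and was higher in the nuclear libraries. Transcripts annotated as keeping an intron, chosen as a marker of nuclear RNA, made up 7.35 to 9.75% of TPM in nuclear libraries, against 3.53 to 3.92% in cytoplasmic libraries. The purity of the fractions was not tested. In bulk RNA, fewer cells that express a gene and less RNA per cell cannot be told apart.

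Compound 2 was compared with DMSO to see how cells respond to the inhibitor, and zinc finger transcripts were among those that fell. Of the 161 members tested, 114 fell and 15 rose at an adjusted p under 0.05 (limma on log2(TPM + 1), Benjamini-Hochberg over 13106 genes). Over all genes tested, 51.8% were lower and 12% were higher. The median change of the members was −0.79 on the log2 scale, against −0.31 over all genes tested. Of the 161 members 57, or 35.4%, were lower at least 2-fold, against 16.9% of all genes tested. With each library centred on its median log2 level, 77 members were lower and 35 higher, or 47.8% and 21.7%, against 24.3% lower and 43.2% higher of all genes tested, and the median was −0.28 for the members and 0.19 for all genes.

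The loss is visible in the summed signal. The 246 genes together had 1001, 1243 and 982 TPM in the 3 libraries with compound 2, against 1730, 1777 and 1606 TPM with DMSO. Cells with TAOK2 siRNA had 1475, 1439 and 1524 TPM, against 1645, 1587 and 1727 TPM with control siRNA. The compound 2 libraries lie below all 9 others.

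Zinc finger genes of other chromosomes fell as well. Of 218 tested ZNF genes on other chromosomes, 159 were lower and 21 higher with compound 2, with a median of −0.84. That is 72.9% and 9.63%, against 51.8% and 12% of all genes tested. The 741 other tested protein-coding genes of chromosome 19 had 400 lower (54%), 81 higher (10.9%) and a median of −0.31, the same median as all genes. Among 11 tested C2H2 genes of chromosome 19 with other names, such as the ZFP and ZSCAN genes, 10 fell and 1 rose (KLF16, 0.59 ± 0.09 SE, adjusted p = 9.6e-05 by limma), with a median of −0.87.

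**Figure D1:**
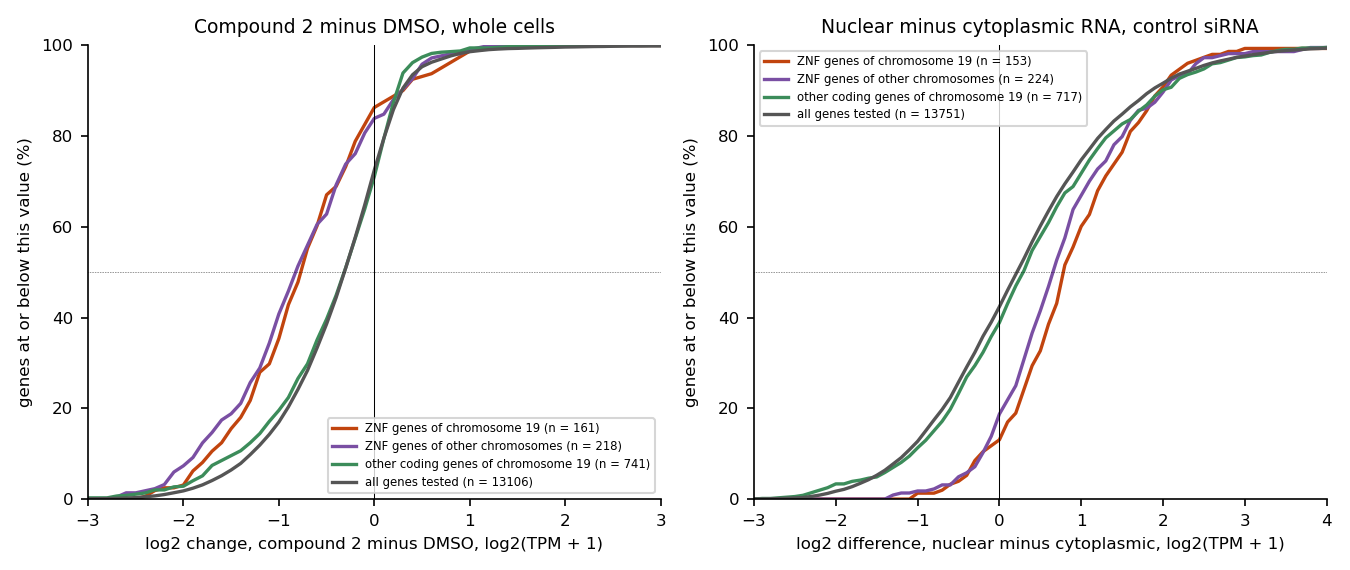
Cumulative share of genes (vertical axis, percent) at or below each log2 difference (horizontal axis, log2(TPM + 1)) for compound 2 minus DMSO in whole cells, left, and nuclear minus cytoplasmic RNA in control siRNA cells, right; each line is a gene set with its number of tested genes. On the left both ZNF lines lie left of the line of all genes (medians −0.79 and −0.84 against −0.31), and on the right both lie right of it (medians 0.80 and 0.67 against 0.21).

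ZNF324 and ZNF45 were among the deepest falls. ZNF324 had 0.978, 1.29 and 0.878 TPM with compound 2, against 10.4, 11.6 and 8.45 TPM with DMSO, a change of −2.44 ± 0.12 (SE, adjusted p = 6.6e-09 by limma). On the TPM + 1 scale that is 5.42-fold lower. ZNF45 had 1.51, 2.16 and 2.22 TPM with compound 2, against 13.5, 13.1 and 13.7 TPM with DMSO, a change of −2.29 ± 0.10 (adjusted p = 3.4e-09 by limma). The groups are far apart for both genes, and the compound 2 values also lie below those of both siRNA groups.

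Other deep falls came from several clusters. ZNF526, a gene linked to brain development, had 2.64, 2.12 and 2.77 TPM with compound 2, against 17.0, 17.0 and 16.4 TPM with DMSO, a change of −2.35 ± 0.09. ZNF181 had 2.25, 4.48 and 2.09 TPM with compound 2, against 18.3, 22.7 and 13.8 TPM with DMSO, a change of −2.31 ± 0.22. ZNF558 had 2.45, 2.50 and 2.49 TPM with compound 2, against 11.9, 13.1 and 12.3 TPM with DMSO, a change of −1.95 ± 0.08. In these 3 genes the lowest DMSO value is at least 3 times the highest compound 2 value. The rest of the 12 largest falls were ZNF324B, ZNF497, ZNF446, ZNF837, ZNF175, ZNF229 and ZNF550, between −2.06 and −1.87. ZNF175 (OTK18), known as a repressor of HIV transcription in macrophages, had 0.755, 0.899 and 0.817 TPM with compound 2, against 6.17, 5.79 and 5.99 TPM with DMSO.

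Several members with a known role fell. ZNF274, which brings SETDB1 to the 3′ ends of zinc finger genes, had 4.11, 5.67 and 4.70 TPM with compound 2, against 21.4, 18.4 and 19.1 TPM with DMSO (−1.83 ± 0.14). ZNF224, a KRAB repressor of the aldolase A gene, had 5.76, 7.13 and 4.87 TPM with compound 2, against 19.3, 16.4 and 16.8 TPM with DMSO (−1.43 ± 0.11, adjusted p = 2.8e-07 by limma). ZNF473, which takes part in the 3′ processing of histone pre-mRNA, had 4.55, 8.81 and 4.28 TPM with compound 2, against 10.6, 11.3 and 11 TPM with DMSO (−0.86 ± 0.18, adjusted p = 0.0012 by limma). The groups do not overlap in any of the 3, and with libraries centred on their medians the ZNF473 change no longer passed. ZNF675, a regulator of TRAF6 signalling, ZNF420, a p53 modulator, the imprinted gene ZNF331 and ZNF350, a BRCA1 partner, did not pass, with changes of −0.23, −0.21, −0.19 and 0.12. With batch as a block ZNF331 passed (adjusted p = 0.037 by limma).

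Among the 10 most abundant members 7 fell and 3 rose. ZNF146 had 80.0, 132 and 81.3 TPM with compound 2, against 240, 242 and 198 TPM with DMSO (−1.24 ± 0.17, adjusted p = 4.3e-05 by limma). ZNF302 fell by 1.79 on the log2 scale, ZNF444 by 1.07, ZNF579 by 0.98, ZNF480 by 0.94, ZNF787 by 0.74 and ZNF581 by 0.32. With libraries centred on their medians ZNF581 turns to 0.19, not passing. The members that rose were ZNF574 (0.64), ZNF580 (0.60) and ZNF428 (0.56).

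The largest rises were smaller than the largest falls. ZNF551 had 11.7, 13.2 and 10.1 TPM with compound 2, against 5.16, 4.99 and 5.28 TPM with DMSO, a change of 1.04 ± 0.15 (adjusted p = 7.5e-05 by limma). ZNF121 had 17.8, 19.4 and 14.7 TPM with compound 2, against 9.63, 7.67 and 8.24 TPM with DMSO, a change of 0.94. ZNF296, known in mouse as an activator of Oct4, had 7.16, 7.61 and 7.85 TPM with compound 2, against 3.62, 3.51 and 3.8 TPM with DMSO, a change of 0.88. In each the groups are well separated. ZNF347, whose mean of 1.66 TPM lies under the 2 TPM set for named genes and which was picked after its values were seen, changed by 1.34, with 4.48, 4.45 and 3.51 TPM with compound 2, against 0.963, 0.841 and 1.31 TPM with DMSO.

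A gene's total can rise while its coding transcripts fall. ZNF749 had 27, 27.3 and 31.7 TPM with compound 2, against 15.8, 13.6 and 15.1 TPM with DMSO (0.90 ± 0.09). Its noncoding processed transcript ZNF749-203 had 23.7, 23.1 and 27 TPM with compound 2, against 8.62, 7.60 and 9.53 TPM with DMSO. Its coding transcript ZNF749-201 had 2.6, 3.43 and 3.07 TPM with compound 2, against 5.58, 4.47 and 4.81 TPM with DMSO. The rise of ZNF749 is thus a rise of a transcript with no annotated coding sequence, and over its coding transcripts alone the gene fell by 0.53. Counting coding transcripts alone, 13 of the 15 members that rose still did, ZNF749 fell and ZNF611 was not tested. Of the 114 that fell, 106 still did, 3 did not pass and 5 were not tested.

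**Figure D2:**
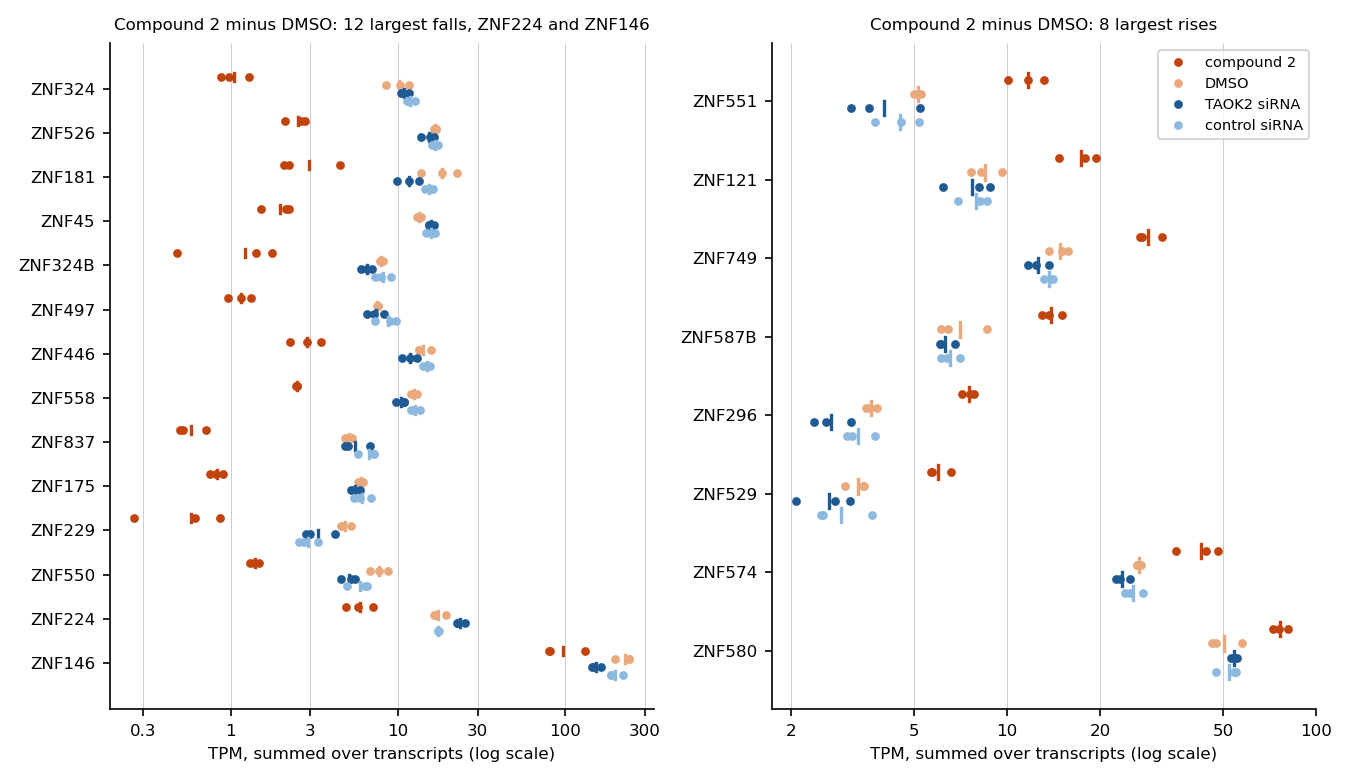
TPM in every whole-cell library (points, log scale) with group means (vertical ticks) for the 12 largest falls with compound 2, ZNF224 and ZNF146, left, and the 8 largest rises, right, in the groups compound 2, DMSO, TAOK2 siRNA and control siRNA. The compound 2 points of ZNF324 (0.878 to 1.29 TPM) stand apart from all other groups, while ZNF224 is lowest with compound 2 (4.87 to 7.13 TPM) and highest with TAOK2 siRNA (22.4 to 25.1 TPM).

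Falls with compound 2 were spread over the clusters. Members whose neighbouring starts lie at most 1000000 bases apart were joined into 16 clusters. The largest, 59 genes at chr19:55476332-58481230 that include ZNF324, had 37 lower and 7 higher of 51 tested, with a median of −0.83. The cluster of ZNF45 and ZNF224 at chr19:43525497-45076588 had 17 lower and 2 higher of 21, with a median of −0.98. The cluster beside the centromere at chr19:19668796-24129961, home of ZNF91, ZNF93 and their relatives, had 5 lower and 1 higher of 13, with a median of −0.29, near that of all genes. Over all genes tested 51.8% were lower and 12% higher, and differences between clusters were not tested. By number of fingers, medians were −0.72 for the 10 tested members with at most 4, −1.0 for 38 with 5 to 9, −0.63 for 62 with 10 to 14 and −0.79 for 51 with at least 15. Across the 161 members the change correlated only weakly with gene length, coding length, coding GC, level, fingers and shared sequence (r between −0.12 and 0.16 and rho between −0.18 and 0.14, a description across genes).

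**Figure D3:**
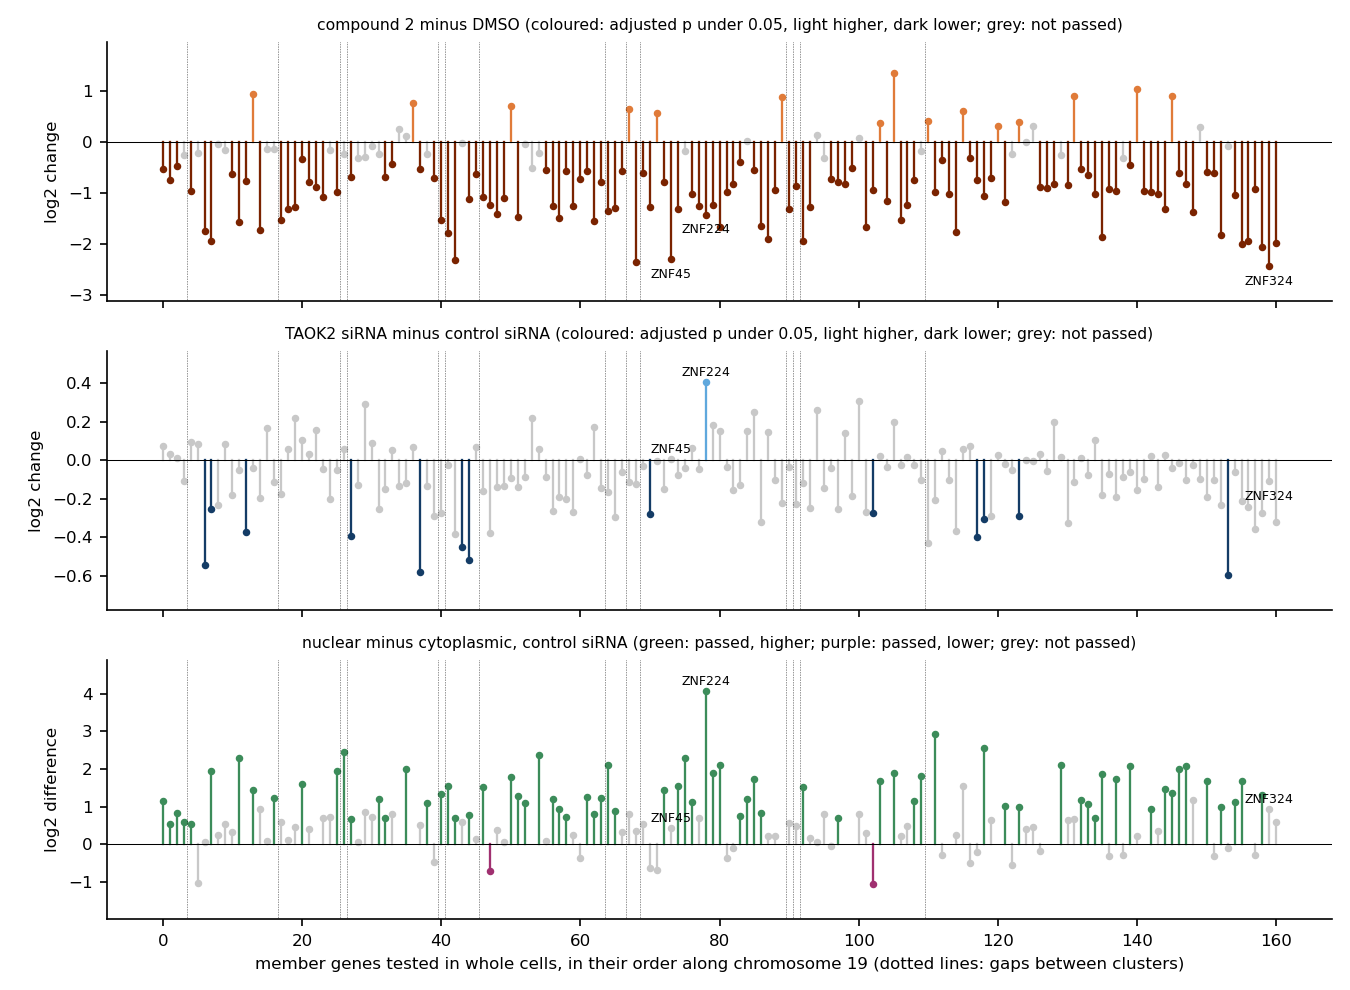
Log2 change of each tested member (vertical lines, log2(TPM + 1)) in gene order along chromosome 19 (horizontal axis, rank) for compound 2 minus DMSO, TAOK2 siRNA minus control siRNA, and nuclear minus cytoplasmic RNA with control siRNA; coloured lines passed at an adjusted p under 0.05 and dotted lines mark gaps between clusters. Falls with compound 2 spread along the chromosome (114 of 161), TAOK2 siRNA has 13 falls and the rise of ZNF224, and nuclear RNA has 78 higher members with ZNF224 on top at 4.08.

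Promoters are shown because many members fell together. RefSeq (GRCh38.p14) promoters of 300 bases, 250 before and 50 after the start, were found for 215 of the 246 genes. They are printed for the deepest fall (ZNF324), for ZNF45 and for the rise of ZNF347, in the direction of transcription, with matches to the motifs searched in capitals on either strand.
ZNF324 promoter, chr19:58466830-58467129, plus strand: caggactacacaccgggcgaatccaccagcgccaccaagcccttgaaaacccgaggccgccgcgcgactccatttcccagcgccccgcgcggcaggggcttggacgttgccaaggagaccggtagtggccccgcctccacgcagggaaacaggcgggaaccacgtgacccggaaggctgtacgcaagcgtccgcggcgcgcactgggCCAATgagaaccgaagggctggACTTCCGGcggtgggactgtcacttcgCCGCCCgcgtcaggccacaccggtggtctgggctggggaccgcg
ZNF45 promoter, chr19:43935233-43935532, minus strand: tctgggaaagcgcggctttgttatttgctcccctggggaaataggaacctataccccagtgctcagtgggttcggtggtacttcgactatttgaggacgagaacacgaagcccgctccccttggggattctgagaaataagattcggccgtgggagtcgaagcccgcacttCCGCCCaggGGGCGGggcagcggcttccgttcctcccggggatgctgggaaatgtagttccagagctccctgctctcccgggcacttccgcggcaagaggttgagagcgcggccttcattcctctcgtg
ZNF347 promoter, chr19:53159004-53159303, minus strand: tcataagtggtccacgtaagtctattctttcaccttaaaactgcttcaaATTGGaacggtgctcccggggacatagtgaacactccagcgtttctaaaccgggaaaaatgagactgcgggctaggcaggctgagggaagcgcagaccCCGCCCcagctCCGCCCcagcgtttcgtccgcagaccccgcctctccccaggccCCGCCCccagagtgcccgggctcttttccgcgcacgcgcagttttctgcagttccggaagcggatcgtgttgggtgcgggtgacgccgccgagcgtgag
The ETS-like word CCGGAAGT, present in the ZNF324 promoter, occurs in 20.9% of members' promoters, against 9.18% of the 9789 promoters of tested genes and 4.14% of all 35116. The 215 promoters of members include those of members that were not tested, so the sets are unlike in level. It was found in 29.4% of 102 promoters of members that fell with compound 2, in 21.4% of 14 that rose and in 27.6% of 29 that did not pass. CCAAT occurs in 53.5% of members' promoters, against 36.6% of those of tested genes. In members against tested genes GGGCGG occurs in 67.9% against 71.0%, AAGATGGC in 6.51% against 5.52%, TGACGTCA in 3.26% against 3.31%, and TATAAA in 1.86% against 5.24%. Each motif was searched on both strands and counted on its own, and a match is a run of letters, not a site shown to be bound.

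TAOK2 siRNA, compared with control siRNA to see what loss of the kinase's mRNA does, gave few calls among zinc finger genes. Of 161 members 13 fell and 1 rose at an adjusted p under 0.05 by limma. Over all genes tested 14.4% were lower and 7.78% higher. Their median change was −0.09, against −0.05 over all genes tested. At an unadjusted p under 0.05 there were 28 members (25 lower and 3 higher), or 17.4%, against 35.3% of all genes tested.

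The falls were small. ZNF43 had 4.50, 4.14 and 4.38 TPM with TAOK2 siRNA, against 6.5, 6.46 and 8.10 TPM with control siRNA (−0.58 ± 0.13, adjusted p = 0.0072 by limma). ZNF30 had 2.81, 2.94 and 2.56 TPM with TAOK2 siRNA, against 4.29, 4.36 and 4.52 TPM with control siRNA (−0.52, adjusted p = 0.0080 by limma). ZNF787 had 63.8, 61.2 and 57.1 TPM with TAOK2 siRNA, against 86.0, 78.4 and 76.3 TPM with control siRNA (−0.40). The groups do not overlap in any of the 3. The other falls were ZNF544 (−0.60), ZNF414 (−0.54), ZNF599 (−0.45), ZNF101 (−0.39), ZNF444 (−0.30), ZNF480 (−0.28) and 4 more between −0.37 and −0.25. Of the 13 that fell, 10 also fell with compound 2, or 76.9%, against 70.8% of all 161 tested members. They are 8.77% of the 114 that fell with compound 2, against 8.07% of the 161. Without any 1 library the count of falls was between 3 and 7, with 3 left without control siRNA replicate 1 and 3 without TAOK2 siRNA replicate 2. Of the 9 falls named, ZNF43 and ZNF30 passed without each library in turn, and each of the others lost its call without at least 3 of the libraries.

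ZNF224 was the member that rose. It had 25.1, 22.8 and 22.4 TPM with TAOK2 siRNA, against 17.6, 17.3 and 17.4 TPM with control siRNA (0.40 ± 0.11, adjusted p = 0.022 by limma). Every TAOK2 siRNA value lies above every control siRNA value, but the call held without TAOK2 siRNA replicate 3 only and was lost on leaving out each other library. ZNF45 had 15.4, 15.3 and 16.6 TPM with TAOK2 siRNA, against 16.6, 14.8 and 15.7 TPM with control siRNA, and did not pass (0.01). ZNF324 had 11.7, 10.4 and 10.7 TPM with TAOK2 siRNA, against 11.5, 11.3 and 12.7 TPM with control siRNA, and did not pass (−0.11). The groups of both genes overlap. ZNF146 had 146, 149 and 164 TPM with TAOK2 siRNA, against 188, 188 and 222 TPM with control siRNA (−0.38, adjusted p = 0.13 by limma).

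The change with compound 2 was set against the change with TAOK2 siRNA in 1 test of their difference. It was more negative with compound 2 for 98 members and more positive for 13 at an adjusted p under 0.05 by limma, against 42.4% and 12.3% of all genes tested. The median difference was −0.66, against −0.30 over all genes tested, and with libraries centred on their medians the counts were 58 and 26, or 36% and 16.1%, against 21.1% and 35.7% of all genes tested. ZNF324 (−2.33), ZNF45 (−2.30) and ZNF526 (−2.22) led the first group. For ZNF224, lower with compound 2 and higher with TAOK2 siRNA, the difference was −1.83 ± 0.16 (adjusted p = 1.9e-06 by limma). ZNF551 (1.19) and ZNF296 (1.1) led the second.

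Transfection gave few calls among these genes. Control siRNA against DMSO gave 3 lower members and no higher one by limma, against 2.11% and 4.32% of all genes tested, and 15 members, or 9.32%, had an unadjusted p under 0.05, against 21.9% of all genes tested. The lower members were ZNF229 (−0.59), ZNF350 (−0.52) and ZNF331 (−0.45). This comparison shares its libraries with the comparisons above. Without any 1 library 0 to 3 members were lower, with none left without control siRNA replicate 1 and none without replicate 2.

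Corepressors of KRAB zinc finger proteins and genes of H3K9 methylation and related silencing were listed for comparison, and 30 of 33 symbols were tested. The list holds the same gene under the symbols TASOR and FAM208A. With compound 2, 17 fell and 5 rose, against 51.8% and 12% of all genes tested, with a median of −0.41 against −0.31 over all genes tested. The 4 with the smallest adjusted p were FAM208A (TASOR, a HUSH complex subunit, −2.15), SMARCAD1 (a chromatin remodeller bound by TRIM28, −2.12), MORC2 (an ATPase that works with HUSH, −1.95) and SUV39H1 (an H3K9 methyltransferase, −1.69). With TAOK2 siRNA 6 fell and none rose, against 14.4% and 7.78%, with a median of −0.05, as over all genes tested, and among them SETDB1 changed by −0.42, UHRF1 by −0.92, HDAC1 by −0.32 and MTA2 by −0.23. In nuclear against cytoplasmic RNA of control siRNA cells 15 of 30 were higher and 2 lower, against 29.8% and 18.9%, with a median of 0.79 against 0.21 over all genes tested.

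Nuclear RNA was compared with cytoplasmic RNA, fractions whose purity was not tested, and far more zinc finger transcripts were higher than lower in nuclear RNA. With TAOK2 siRNA 70 of 153 tested members were higher in nuclear RNA and 2 were lower by limma, against 28.6% and 16.6% of all 13751 genes tested. With control siRNA 78 were higher and 2 lower, against 29.8% and 18.9%. The median difference of the members was 0.65 with TAOK2 siRNA, where that of all genes was 0.23. With control siRNA it was 0.80 for the members, 0.67 for 224 ZNF genes of other chromosomes (102 higher and 3 lower), 0.29 for 717 other coding genes of chromosome 19 (177 higher and 78 lower) and 0.21 for all genes. With batch as a block there were 92 higher and 8 lower members with TAOK2 siRNA, against 40.8% and 25.3% of all genes tested. With control siRNA the block gave 102 higher and 8 lower, against 40.5% and 27.7%.

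The scale matters here. With libraries centred on their medians, 43 members were higher in nuclear RNA and 11 lower with TAOK2 siRNA, or 28.1% and 7.19%, against 18.2% and 26.5% of all genes tested. With control siRNA 50 were higher and 11 lower on that scale, or 32.7% and 7.19%, against 20.2% and 29.8%. Mitochondrially encoded genes were then left out and TPM rescaled, a choice made after the mitochondrial share was seen, which raises every other nuclear value alike within a library. On that scale 116 of 166 tested members were higher with TAOK2 siRNA and none lower, or 69.9%, against 47.7% and 7.67% of all 14486 genes tested, and the median was 1.15 against 0.74 over all genes. With control siRNA 127 were higher and none lower, or 76.5%, against 47.8% and 9.51%, and the median was 1.32 against 0.74.

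ZNF224 had the largest nuclear excess. With TAOK2 siRNA it had 82.3 and 133 TPM in nuclear RNA, against 5.27 and 6.77 TPM in cytoplasmic RNA (3.92 ± 0.33, adjusted p = 7.5e-05 by limma). With control siRNA it had 107 and 147 TPM in nuclear RNA, against 5.27 and 7.93 TPM in cytoplasmic RNA (4.08 ± 0.33, adjusted p = 4.1e-05 by limma). That is 16.9-fold on the TPM + 1 scale with control siRNA, and both batches gave over 4 on the log2 scale. The excess was seen in coding and noncoding transcripts, though its size differed between transcripts. In control siRNA cells the coding transcript ZNF224-201 had 39.6 and 47.4 TPM in nuclear RNA, against 3.33 and 3.94 TPM in cytoplasmic RNA. The transcript ZNF224-203, which keeps an intron, had 17.5 and 21.2 TPM in nuclear RNA, against 0.210 and 0.147 TPM in cytoplasmic RNA.

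Next in size with control siRNA were ZNF579 (2.94), ZNF781 (2.78), ZNF444 (2.57), ZNF333 (2.45) and ZNF420 (2.37). ZNF579 had 30.1 and 46.7 TPM in nuclear RNA, against 5.05 and 3.17 TPM in cytoplasmic RNA. ZNF420 had 5.25 and 21.1 TPM in nuclear RNA, against 1.12 and 1.46 TPM in cytoplasmic RNA, so its nuclear libraries differ from each other, and the difference did not pass without nuclear replicate 2 (1.45) or without either cytoplasmic replicate. Much of that was ZNF420-208, annotated as a target of nonsense-mediated decay, with 4.69 and 20.3 TPM in nuclear RNA, against 0.432 and 0.671 TPM in cytoplasmic RNA. With TAOK2 siRNA the ZNF444 difference of 1.79 was 0.90 without cytoplasmic replicate 2 and did not pass.

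ZNF480 and ZNF146 were the members lower in nuclear RNA. With control siRNA ZNF480 had 24.3 and 24.8 TPM in nuclear RNA, against 51.4 and 53 TPM in cytoplasmic RNA (−1.06). With control siRNA ZNF146 had 148 and 171 TPM in nuclear RNA, against 242 and 282 TPM in cytoplasmic RNA (−0.71). Both differences shrank without mitochondrial genes (−0.53 and −0.17) and no longer passed, and that of ZNF146 was also lost without nuclear replicate 1 (−0.61) or cytoplasmic replicate 2 (−0.60). ZNF45, with 18.3 and 26.7 TPM in nuclear RNA, against 15.2 and 17.1 TPM in cytoplasmic RNA, did not pass (0.43, adjusted p = 0.14 by limma, and 0.049 with batch as a block), nor did ZNF324 (0.93, adjusted p = 0.054 by limma, and 0.0019 with the block). Both thus passed with the block and not without it.

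**Figure D4:**
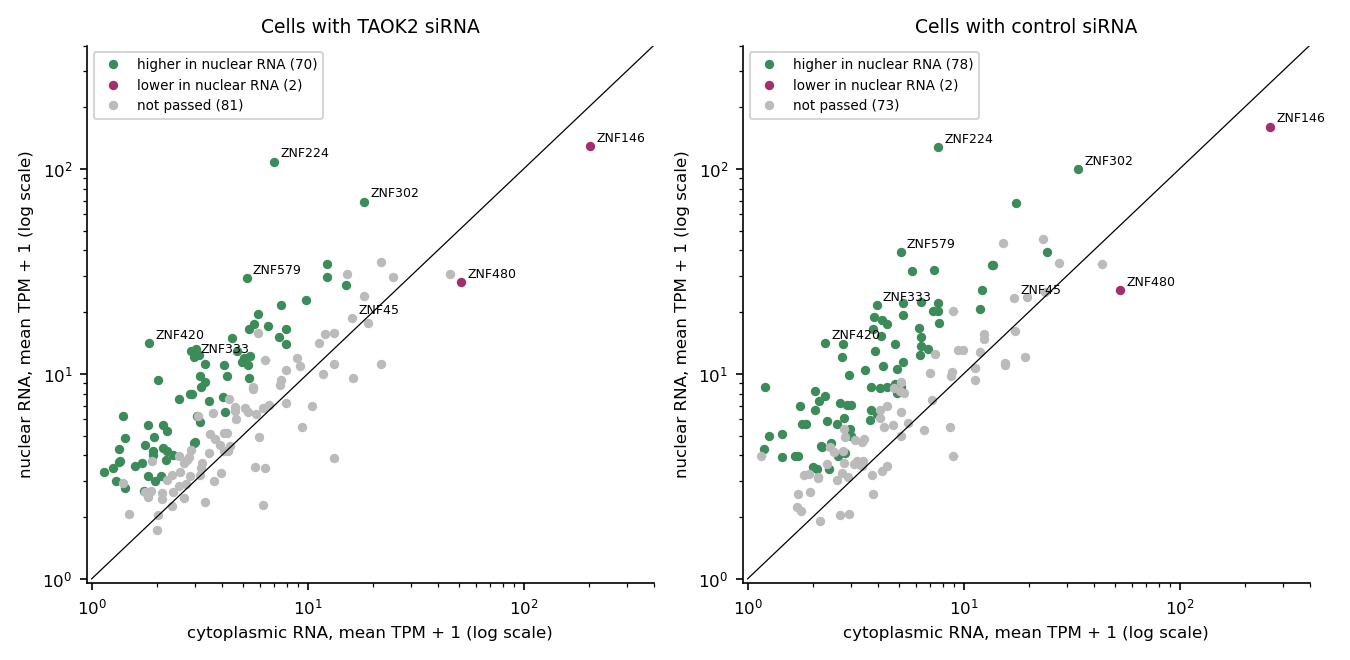
Mean TPM + 1 in nuclear RNA (vertical axis, log scale) against cytoplasmic RNA (horizontal axis, log scale) for the 153 tested members in cells with TAOK2 siRNA, left, and control siRNA, right; each point is a gene and the line marks equal values. Most coloured points lie above the line (70 and 78 higher), ZNF224 farthest from it, with ZNF146 and ZNF480 below it.

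TAOK2 siRNA was also compared with control siRNA within each kind of RNA, where pairs of libraries give the fit without batch little power. In nuclear RNA no member passed by limma in either direction, against 0% lower and 0.0145% higher of all genes tested. Of 153 members 135, or 88.2%, had a change below 0, against 56.6% of all genes tested, and the median was −0.28 against −0.05. At an unadjusted p under 0.05 there were 26 members, all lower, or 17%, against 9.66% of all genes tested. With batch as a block 12 members fell and none rose, against 3.13% and 2.77% of all genes tested. The deepest was ZNF558, named like ZNF333 and the block calls below after values were seen, with 28 and 38.4 TPM with TAOK2 siRNA, against 60.5 and 74.2 TPM with control siRNA (−1.01, adjusted p = 0.0071 by limma with the block and 0.19 without it). ZNF333 had 10.2 and 11.9 TPM with TAOK2 siRNA, against 19.3 and 22.0 TPM with control siRNA (−0.85). In both genes every TAOK2 siRNA value lies below every control siRNA value. Marker lists of several cell types differed between the same groups, in both directions. In nuclear RNA the 6 epithelial markers summed to 5068 to 5647 TPM with TAOK2 siRNA, against 3072 to 3734 TPM with control siRNA. That list did not move as a set. Every nuclear TAOK2 siRNA value lay above every control siRNA value for KRT8, KRT18 and KRT19, and below for KRT7 and EPCAM. The groups overlapped for CDH1. The 6 leukocyte markers summed to 34.1 to 51.8 TPM with TAOK2 siRNA, against 24.2 to 34.7 TPM with control siRNA. The 6 alveolar type II markers summed to 9.58 to 9.97 TPM with TAOK2 siRNA, against 13.6 to 14.1 TPM with control siRNA, and the 4 endothelial markers to 4.26 to 4.89 TPM, against 3.3 to 6.13 TPM. The 6 fibroblast markers summed to 31.4 to 33.2 TPM with TAOK2 siRNA, against 15.2 to 17.6 TPM with control siRNA. Of the fibroblast list, LUM alone had 23.9 and 25.0 TPM with TAOK2 siRNA, against 6.26 and 6.87 TPM with control siRNA, COL1A1 had 4.85 and 5.18 TPM, against 6.35 and 7.70 TPM, and DCN had 2.29 and 2.43 TPM, against 2.26 and 2.69 TPM. The part of these markers in the result was not tested.

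In cytoplasmic RNA no member passed, against 0% of all genes tested in each direction, and 10 members, or 6.54%, had an unadjusted p under 0.05, against 6.78% of all genes tested. The median was −0.18 against −0.06 over all genes tested, and 119 of 153 members, or 77.8%, were below 0, against 58.9%. With batch as a block ZNF302, ZNF181, ZNF506, ZNF585A and ZNF559 fell, against 1.45% of all genes tested. In total RNA no member passed, again against 0%, with 3, or 1.96%, at an unadjusted p under 0.05, against 6.67%, and a median of −0.09 against −0.01. With the block ZNF585A, ZNF181, ZNF302 and ZNF558 fell, against 0.807%. No member differed in the nuclear to cytoplasmic difference between TAOK2 siRNA and control siRNA, with or without the block, as for all genes tested (0%), and 2 members, or 1.31%, had an unadjusted p under 0.05, against 1.34% (median −0.14 against 0.02).

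Annotated transcript types add detail within genes. A retained_intron transcript is one that keeps an intron and has no annotated coding sequence, and its share is its percent of the gene's TPM. A share counted as changed where the test on log2 odds (0.5 TPM added) passed and the percentage moved the same way, a rule added after the values were seen. With compound 2 the retained_intron share rose in 25 of 71 tested members and fell in 6, against 20% and 19% of all genes tested. By the odds test alone the counts were 29 and 7, against 23.2% and 19.3%. The added 0.5 TPM draws odds toward even when a gene's total falls, and members fell more than all genes. The part of this in the counts was not tested.

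ZNF225 had retained_intron shares of 40.5, 39.7 and 40.3% with compound 2, against 14.1, 9.30 and 5.94% with DMSO. Its intron-keeping transcript ZNF225-205 had 0.540, 0.937 and 0.449 TPM with compound 2, against 0.746, 0.503 and 0.256 TPM with DMSO. The coding transcript ZNF225-201 had 0.140, 0.165 and 0.127 TPM with compound 2, against 1.23, 1.49 and 1.18 TPM with DMSO, so the larger share goes with a lower gene total (−1.23). ZNF224 had 44.0, 49.9 and 47.5% with compound 2, against 34.6, 31.4 and 35.0% with DMSO (adjusted p = 0.0012 by limma). Mean shares with compound 2 against DMSO also rose in ZNF333 (64.2% against 43.7%), ZNF564 (24.7% against 8.75%), ZNF561 (44.7% against 30.0%) and ZNF546 (19.4% against 5.45%). They fell in ZNF175 (8.04% against 39.5%), ZNF302 (13.5% against 28.6%), ZNF414 (23.5% against 37.5%), ZNF43 (7.96% against 20.1%) and ZNF611 (6.62% against 11.5%). Summed over all members, retained_intron transcripts were 4.22, 4.36 and 3.87% of TPM with compound 2, against 5.96, 5.31 and 5.84% with DMSO, which is the other direction from the count of genes and weights the abundant ones.

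The share of coding transcripts fell with compound 2 in 44 of 120 tested members and rose in 9, against 24% and 13.5% of all genes tested. Some of these falls are small in percent, such as ZNF766 (99.0% with compound 2 against 99.7% with DMSO). The pull of the added 0.5 TPM on genes whose total fell applies here too, and its part in the counts was not tested. ZNF71 shows the largest shift. Its coding share was 33.1, 40.6 and 48.0% with compound 2, against 94.8, 94.1 and 97.1% with DMSO, while its total did not pass (−0.24). The processed transcript ZNF71-202 had 4.83, 5.37 and 2.97 TPM with compound 2, against 0.403, 0.599 and 0.239 TPM with DMSO. The coding transcript ZNF71-203 had 2.12, 3.34 and 2.42 TPM with compound 2, against 5.73, 8.23 and 6.53 TPM with DMSO. The groups do not overlap for either transcript. Mean coding shares with compound 2 against DMSO also fell in ZNF714 (33.4% against 71.2%), ZNF160 (55.2% against 85.6%), ZNF225 (59.8% against 90.2%) and ZNF470 (51.2% against 80.2%). They rose in ZNF175 (92% against 60.5%), ZNF211 (69.9% against 44.3%), ZNF329 (81.3% against 58.5%), ZNF302 (86.5% against 71.4%) and ZNF529 (90.2% against 76.2%).

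TAOK2 siRNA changed few shares in whole cells. The retained_intron share rose in ZNF101 (17.1% against 7.91% with control siRNA) and ZNF561 (39.6% against 26.7%), both at an adjusted p of 0.046 by limma, against 0.496% of all genes tested, and neither passed with batch as a block or on leaving out any 1 library. No coding share passed by limma, against 0.144% higher and 0.307% lower of all genes tested, with 16 members, or 13.3%, at an unadjusted p under 0.05, against 11.4% of all genes tested. In nuclear RNA no retained_intron and no coding share of a member passed between TAOK2 siRNA and control siRNA, against 0% of all genes tested. At an unadjusted p under 0.05 there were 3 members for the retained_intron share, or 4.29%, against 5.08%, and 3 for the coding share, or 2.61%, against 3.83%.

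In control siRNA cells the retained_intron share was higher in nuclear than in cytoplasmic RNA in 26 of 70 tested members and lower in 2, against 56.8% and 1.65% of all genes tested. The largest differences were wide. ZNF561 had 55.5% in nuclear RNA against 2.48% in cytoplasmic RNA, and in nuclear against cytoplasmic RNA ZNF266 had 55.4% against 4.62%, ZNF554 had 59.4% against 12.3%, ZNF274 had 42.7% against 2.56% and ZNF211 had 42.3% against 3.60%. ZNF226 (3.29% nuclear against 13.0% cytoplasmic) and ZNF530 (10.0% nuclear against 16.3% cytoplasmic) went the other way. ZNF224, in spite of its nuclear excess, had 24.3 and 22.8% in nuclear RNA, against 20.5 and 14.0% in cytoplasmic RNA, which did not pass (adjusted p = 0.65 by limma). The coding share was lower in nuclear RNA in 27 of 115 members and higher in 5, against 47.1% and 1.76% of all genes tested. By the odds test alone the counts were 28 and 7, against 47.8% and 2.24%. ZNF585A had a coding share of 30.5% in nuclear RNA against 97.8% in cytoplasmic RNA, with the decay-annotated transcript ZNF585A-204 at 6.21 and 10.4 TPM in nuclear RNA, against 0.240 and 0.220 TPM in cytoplasmic RNA. In nuclear against cytoplasmic RNA ZNF420 had a coding share of 7.33% against 57.7%, ZNF266 44.6% against 95.4%, ZNF791 49.2% against 97.6% and ZNF274 56.7% against 97.4%.

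**Figure D5:**
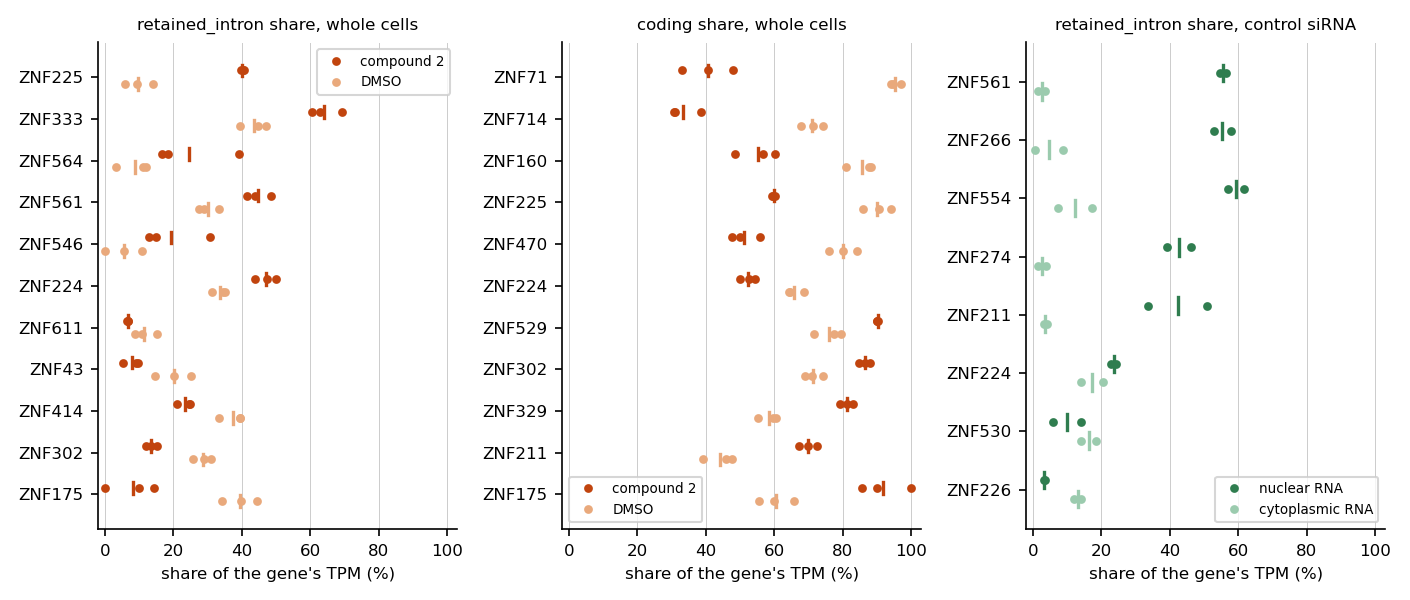
Share of a gene's TPM (horizontal axis, percent) held by retained_intron or coding transcripts in each library (points) with group means (ticks), for compound 2 and DMSO in whole cells, left and middle, and for nuclear and cytoplasmic RNA of control siRNA cells, right. ZNF71 keeps 33.1 to 48.0% coding with compound 2, against 94.1 to 97.1% with DMSO, and the ZNF561 retained_intron share is 55.5% in nuclear RNA, against 2.48% in cytoplasmic RNA.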

How the data were processed

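The labels describe polyA-selected, paired-end 150 bp sequencing of at least 100000000 reads per library from RNA harvested with Trizol. The authors deposited a table of transcript TPM (an abundance per length, scaled to the same total in each library) for 12 whole-cell libraries and another for 12 fractionation libraries, and the submitters' processing notes name kallisto, with no version, and GRCh38.p14. TPM keeps no read total, so the counting error behind a value is unknown beyond the stated minimum. Of 188753 listed transcripts, 169797 (89.96%, holding 97.0 to 98.35% of TPM) matched GENCODE 29 by identifier, and unmatched transcripts were left out.

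TPM was summed per gene. Genes averaging 1 TPM or more across a table's 12 libraries were tested with limma 3.58.1 (R 4.3.3) on log2(TPM + 1), with group means over all 12 libraries, a trended robust variance and Benjamini-Hochberg adjustment over all genes tested at 0.05. Folds are on the TPM + 1 scale and understate changes of low genes. Shares within a gene were tested as log2 odds with 0.5 TPM added. Fits without the block were tested on simulated data with known changes. For compound 2 minus DMSO, 48% of changes of 0.5 on the log2 scale and 89% of changes of 1 were recovered. For nuclear minus cytoplasmic RNA with control siRNA, 29% of changes of 1 and 81% of changes of 2 were recovered. Tables were normalized separately and were tested apart.

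The labels mark same-numbered libraries as sharing a batch, which pairs them. Deviations from group means correlated over 0.1 in 12 of 18 whole-cell pairs and in all 15 distinct fractionation values (with 2 libraries a group, both batches give the same value). The fit with batch as a block is given beside a result where it changes a call or moves a count by over 1.5 times. Alternatives were other values added to TPM, other filters, centring each library on its median, the block, coding transcripts alone, each library left out, and mitochondrial genes left out, the last chosen after seeing the data.

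Members and lists were chosen with earlier results of these data known, and the rule on share percentages, the promoter motifs, finger counts, shared words and the GC comparison were chosen after seeing values. Named genes are ZNF45, ZNF324, ZNF224, the 10 most abundant members, members with a textbook role, and per comparison a fixed number of largest changes among members that passed, with a mean of at least 2 TPM and the same sign in every batch. For lists of other genes, up to 4 with the smallest adjusted p are named. Proteins and the genome sequence were not used here.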

Additional observations from a re-analysis of the deposited data

How the results depend on the processing

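Of 521 alternative values of the 46 counts and medians, 402 stayed with the reported value and 119 moved. With each library centred on its median, members higher and lower with compound 2 numbered 35 and 77 (median −0.28), with TAOK2 siRNA 2 and 8 (median −0.05), and for the difference of both effects 26 and 58 (median −0.20). For nuclear minus cytoplasmic RNA the same scale gave 43 and 11 with TAOK2 siRNA (median 0.28), 50 and 11 with control siRNA (median 0.41), and a median of −0.21 for TAOK2 siRNA in nuclear RNA. With a mean of at least 5 TPM, fewer members were tested: 53 fell with compound 2, 47 in the difference of effects, and 34 (median 0.84) and 37 (median 0.95) were higher in nuclear RNA with TAOK2 siRNA and control siRNA. That filter gave medians of −0.13 for TAOK2 siRNA in whole cells and −0.30 in nuclear RNA. It gave retained_intron counts of 16 (compound 2, higher), 1 (TAOK2 siRNA, higher) and 2 (nuclear, lower), and coding share counts of 5 and 23 (compound 2, higher and lower) and 3 (nuclear, higher). With no filter, medians were −0.35 with compound 2, −0.03 with TAOK2 siRNA (4 lower, 0 higher), −0.33 for the difference of effects, 0.43 and 0.61 for nuclear minus cytoplasmic RNA with TAOK2 siRNA and control siRNA, −0.21 for TAOK2 siRNA in nuclear and −0.09 in cytoplasmic RNA. With 0.1 added to TPM they were −1.03 with compound 2, −0.82 for the difference of effects, 0.93 and 1.03 for nuclear minus cytoplasmic RNA, −0.07 for the effect on that difference and −0.32 in nuclear RNA, and share counts were 16 and 0 (retained_intron, higher with compound 2 and with TAOK2 siRNA) and 4 (coding, higher in nuclear RNA). Over coding transcripts alone, control siRNA minus DMSO had 1 lower member, nuclear minus cytoplasmic RNA had 5 and 4 lower members with medians of 0.60 and 0.62, the effect on that difference had a median of −0.04, and TAOK2 siRNA in nuclear RNA one of −0.21. With batch as a block, members lower in nuclear RNA numbered 8 and 8, TAOK2 siRNA lowered 4 members in total, 12 in nuclear and 5 in cytoplasmic RNA, and 0 retained_intron shares rose with it. Apart from the counts of members higher in nuclear RNA given in the report, the block moved no other count by over 1.5 times. Without mitochondrial genes, 116 and 127 members were higher and 0 and 0 lower in nuclear RNA (medians 1.15 and 1.32).

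Leaving out 1 library at a time gave 0 to 1 higher and 3 to 7 lower members with TAOK2 siRNA (median −0.12 to −0.03), 0 to 3 lower with control siRNA minus DMSO, 40 to 72 higher and 1 to 4 lower in nuclear RNA with TAOK2 siRNA (median 0.56 to 0.81), and 47 to 75 higher and 1 to 2 lower with control siRNA (median 0.66 to 0.94). The median effect on that difference was −0.25 to 0.02, that of TAOK2 siRNA in nuclear RNA −0.43 to −0.15 and in cytoplasmic RNA −0.28 to −0.09. Share counts were 4 to 8 (retained_intron, lower with compound 2), 0 (higher with TAOK2 siRNA) and 3 to 6 (coding, higher in nuclear RNA). Of 1196 values for named genes, 104 no longer passed and 3 reversed: over coding transcripts alone ZNF749 had −0.53 with compound 2 and −0.44 for the difference of effects, and ZNF581 had 0.19 with compound 2 on the centred scale. Where neither an added filter nor a left-out library accounts for a move, the cause was not tested. TPM has no depth, and kallisto splits reads among near-identical transcripts. Pairs of libraries leave fraction comparisons with little power in the fit without the block, also for changes of 1 on the log2 scale (29% recovered in simulated data). Recovery with the block was not tested.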

Other observations

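Differences in level of the members between the experiments correlated with base composition, with exceptions. Among 165 members, the level in total RNA of control siRNA cells in the fractionation experiment minus that in whole cells with control siRNA, on the log2 scale, correlated with the GC content of the coding sequence at r = −0.72 and rho = −0.46, a description across genes. The 35 members with at least 50% coding GC had a median difference of −1.61, with 33 below 0, and the 130 others had a median of −0.05, with 69 below 0. ZNF787, with 73.4% GC, averaged 1.77 TPM in fractionation total RNA, against 80.2 TPM in whole cells. ZNF226, with 42.8% GC, averaged 53 TPM in fractionation total RNA, against 19.9 TPM in whole cells. Exceptions include ZNF160, with 41.7% GC, at 0.155 TPM in fractionation total RNA, against 8.88 TPM in whole cells. ZNF606, with 41.8% GC, had 0.848 TPM, against 4.57 TPM.

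The batches of the fractionation experiment show a smaller difference of the same kind. Batch 2 minus batch 1 correlated with coding GC at r = −0.79 and rho = −0.63 over the same 165 members. The median was −0.42 for the 35 members with at least 50% GC, with 29 below 0, and 0.24 for the others, with 20 of 130 below 0. These comparisons cross tables or batches and were made after the values were seen.

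Within the experiments the contrasts were also split by coding GC. With compound 2 the median change was −0.92 for 35 GC-rich members (24 lower and 6 higher) and −0.77 for the other 126 (90 lower and 9 higher). Of all genes tested 51.8% were lower and 12% higher. With TAOK2 siRNA in whole cells the median change was −0.18 for the 35 GC-rich members (5 lower and 0 higher) and −0.07 for the other 126 (8 lower and 1 higher). Of all genes tested 14.4% were lower and 7.78% higher. For nuclear minus cytoplasmic RNA with control siRNA the median was 0.56 for 30 GC-rich members (10 higher and 0 lower) and 0.80 for the other 123 (68 higher and 2 lower). Of all genes tested 29.8% were higher and 18.9% lower. For TAOK2 siRNA in nuclear RNA the medians were −0.20 for the GC-rich members and −0.30 for the others. Differences between the GC classes were not tested.

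Control siRNA replicates 1 and 2 of the whole-cell experiment lie closer together than other pairs. The robust SD of their log2 difference over 1553 genes was 0.079, against 0.101 to 0.202 for the other pairs within whole-cell groups. They carry different batch labels and were kept as separate libraries.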
